A study of Sus scrofa with 24 samples.

Results

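Colon was compared with ileum in pregnant sows that ate a low-fibre diet supplemented with N-carbamylglutamate (NCG). The comparison rests on 6 of the 24 RNA-seq libraries of the series, chosen by their tissue and diet labels: 3 of colon (colon 1, 2 and 3) and 3 of ileum (ileum 1, 2 and 3). Both groups were female pigs fed 3.73% crude fibre with 0.05% NCG from breeding to gestation day 114 (LN). The other 18 libraries, 3 per tissue and diet, came from the same crude fibre level without NCG (LF), from 7.46% crude fibre (HF) and from 7.46% crude fibre with 0.05% NCG (HN). The trial held 100 sows per diet. Nothing in the labels ties the 3 libraries of a group to 3 different sows, and p-values therefore reflect the spread among libraries, which may be technical. The labels also leave out whether an ileum and a colon library share a sow, where along the ileum or colon the piece was taken, or which layers of the gut wall it held.

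The small intestine digests and absorbs: enterocytes carry enzymes for sugars and peptides on their brush border, take up the products with dedicated transporters, and export dietary fat as chylomicrons. The colon recovers salt and water and burns short-chain fatty acids made by bacteria, and its surface epithelium carries its own mucins and oxidases. Position along the gut is also recorded by HOX genes, of which the posterior members mark the hindgut. NCG imitates N-acetylglutamate, which switches on CPS1, the first enzyme by which small-intestinal enterocytes make citrulline, a precursor of arginine.

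Total counts of the 6 libraries lay between 15242806 and 17869203, and between 16706 and 16874 genes had at least 1 count. Levels below are TMM-normalised CPM values, counts scaled to a common library size, in libraries 1, 2 and 3 of a tissue, and differences are log2 fold changes of colon over ileum with their standard error (SE). A gene was called when the Benjamini-Hochberg adjusted p of edgeR's quasi-likelihood test was under 0.05 over 15675 tested genes. The test used a spread estimated from all 24 libraries. SE was derived from it, as the absolute log2 fold change divided by the square root of the test's F value. Where all 3 libraries of a tissue held 0 reads, the fold is a lower bound that sets 3 counts over the group, which is 0.0663 CPM in ileum and 0.0574 CPM in colon. Where they held 1 to 3 reads together, a ratio with its exact 95% interval is given. Bounds and intervals cover counting error only.

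The ileum label was checked first, since defining genes of the distal ileum were low in all 3 ileum libraries. FABP6, the ileal bile acid-binding protein, was at 0.201, 6.94 and 0.324 CPM in ileum 1, 2 and 3. SLC10A2, the apical bile acid transporter of the ileum, had 0 reads in each of them and 5.01, 5.90 and 15.5 CPM in colon. Genes known from the proximal small intestine were abundant instead. TMPRSS15, the enteropeptidase that activates trypsinogen, was at 2699, 2458 and 2071 CPM in ileum, and the incretin gene GIP was at 139, 146 and 114 CPM. Of the other 9 ileum libraries, 3 (1 each of LF, HF and HN) had FABP6 between 827 and 8420 CPM with GIP between 0.322 and 2.77 CPM. The other 6 had FABP6 between 0 and 38.0 CPM with GIP between 125 and 186 CPM. TMPRSS15 was at 13.7 to 407 CPM in those 6 libraries, below its level in each LN ileum library. The tissue is called ileum below because the labels do so. In colon GIP had no read.

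A second check concerned the cell types in each piece, and ileum 3 stood apart. The fat-cell hormone gene ADIPOQ was at 1.34 and 7.41 CPM in ileum 1 and 2 but at 1126 CPM in ileum 3. PLIN1, the lipid droplet coat protein of fat cells, was at 0.804, 2.76 and 333 CPM, and the adipokine gene LEP at 0, 0.135 and 75.8 CPM. Of the 29 tested adipocyte genes, 26 were highest of the 3 ileum libraries in ileum 3, against 6286 of all 15675 tested genes. The adipocyte mean log2 CPM was 3.15, 3.46 and 7.10 in ileum against 4.07, 4.85 and 3.79 in colon. It was between 2.61 and 3.36 in the other 9 ileum libraries.

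Fat was not the only difference of ileum 3. All 30 cell cycle genes were lowest of the 6 libraries there, against 4391 of all 15675 tested genes. The cell cycle mean log2 CPM was 5.39, 4.02 and 1.88 in ileum 1, 2 and 3. The crypt gene OLFM4 was at 1511, 442 and 2.01 CPM in ileum 1, 2 and 3, and the stem cell marker LGR5 at 8.17, 9.50 and 0.194 CPM. JCHAIN, which joins the chains of secreted IgA, was at 17250, 26500 and 49.2 CPM. Smooth muscle genes had a mean log2 CPM of 4.99, 5.36 and 7.96, and endothelial genes of 4.29, 4.44 and 5.71. Brush-border genes, in contrast, were at 6.55, 7.12 and 7.71, so ileum 3 still held the absorptive transcripts. With 0.5 CPM added, 601 genes were over 4-fold higher and 345 over 4-fold lower in ileum 3 than in both other ileum libraries. For ileum 1 the same counts were 20 and 12, and for ileum 2 they were 17 and 9.

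The colon libraries also differed among themselves. Colon 3 held little smooth muscle: ACTG2, the enteric smooth muscle actin, was at 14260, 6815 and 88.4 CPM in colon 1, 2 and 3. The mean log2 CPM of the 30 smooth muscle genes was 9.65, 8.75 and 5.37. In bulk tissue, fewer cells of a type and less RNA per cell cannot be told apart.

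**Figure D1:**
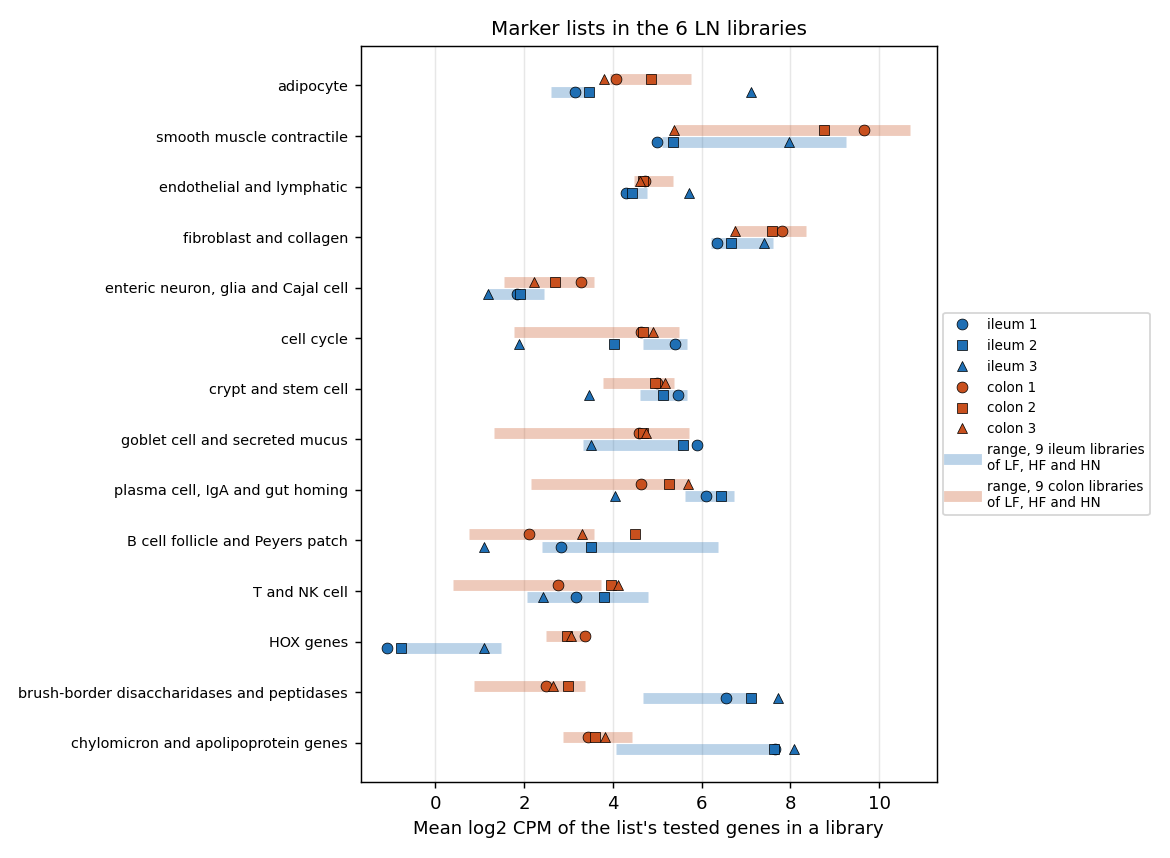
Mean log2 CPM over the tested genes of 14 marker lists (rows) in the 6 LN libraries (circles, squares and triangles for libraries 1, 2 and 3, blue for ileum and orange for colon), with shaded bars for the range of the other 9 libraries of the tissue. Ileum 3 lies above the other ileum libraries in adipocyte genes (7.10) and below them in cell cycle genes (1.88), and colon 3 is at 5.37 in smooth muscle genes against 9.65 and 8.75 in colon 1 and 2.

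More genes were called lower than higher in colon, although of all tested genes 7800 had a positive and 7874 a negative log2 difference. Of the tested genes, 676 (4.31%) were called: 157 higher in colon (1.0%) and 519 lower (3.31%). In LN 16.6% of genes had an unadjusted p under 0.05, and 16.3% without ileum 3. Genes called lower took 8.51%, 9.56% and 10.1% of all counts in ileum 1, 2 and 3 and 0.972%, 1.10% and 1.17% in colon. Genes called higher took 0.400%, 0.423% and 0.420% of the counts in ileum and 2.16%, 2.06% and 2.48% in colon. For 3779 genes (24.1%) the 3 and 3 libraries did not overlap, with colon above in 1606 (10.2%) and below in 2173 (13.9%).

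Without ileum 3 the test called 469 genes (2.99%), 100 higher (0.638%) and 369 lower (2.35%). Of the 157 higher calls 65 remained and 92 were lost, and of the 519 lower calls 341 remained and 178 were lost. None of the 676 changed sign. Of the 270 lost calls, 245 had a fold that moved by less than 1.5 times, with a median adjusted p of 0.0761 without ileum 3. The 25 lost calls whose fold moved further include SI, PC and CDO1, described below. Ileum 3 was not the library that mattered most for the count: 257 genes were called without colon 1, 308 without colon 2, 316 without colon 3, 448 without ileum 1 and 432 without ileum 2. Leaving out any of these 5 libraries kept between 56 and 80 of the higher calls and between 198 and 355 of the lower calls. In all 6 omissions together, 43 higher and 178 lower calls stood each time. In a fit of the 6 LN libraries alone, leaving out ileum 3 took the root of the common dispersion, a measure of the spread between libraries, from 0.435 to 0.319. That fit, added after seeing the data, called 1331 genes, against 1010 with ileum 3 in it.

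The fat-cell list was among those whose median changed sign without ileum 3. The median log2 difference of its 29 genes was -2.20 with ileum 3 and 0.949 without it, while the median of all genes was -0.00341 and 0.0238. Medians rose from -0.894 to 1 for mesothelial genes and from -0.497 to 0.357 for endothelial genes. For antimicrobial and oxidase genes the median went from -0.461 to 0.292. Medians fell from 0.329 to -0.104 for cell cycle genes and from 0.14 to -0.289 for regional transcription factors. Crypt genes went from 0.0255 to -0.284. ADIPOQ had a log2 difference of -2.85 (SE 1.70) with ileum 3 and 3.58 without it, and neither passed the test. PLIN1 went from -2.99 to 2.98, FABP4, which carries fatty acids in fat cells, from -3.60 to 2.44, and LEP from -5.45 to 2.95. Among the calls, CDO1, a cysteine-degrading enzyme, was at 3.22, 4.99 and 76.9 CPM in ileum and 2.30, 2.51 and 2.03 CPM in colon. Its log2 difference was -3.63 (adjusted p = 0.0253 by edgeR) and became -0.84 (0.484) without ileum 3. PC, pyruvate carboxylase, was at 75.9, 47.4 and 352 CPM in ileum and 18.1, 47.6 and 20.3 CPM in colon. It went from -2.47 (0.0292) to -1.10 (0.265).

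**Figure D2:**
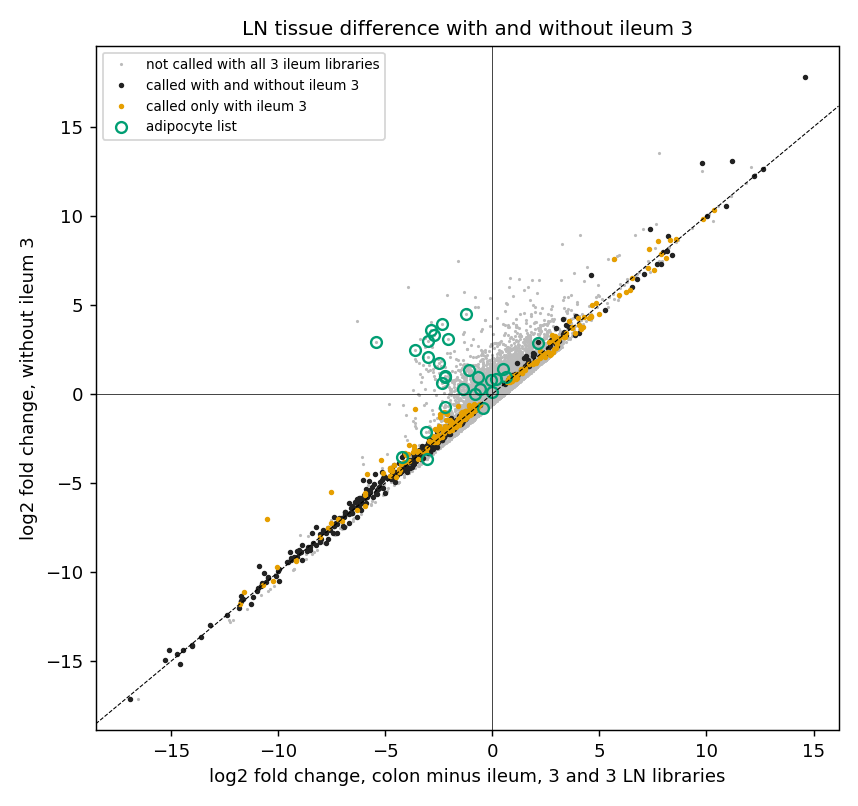
Fitted log2 fold change of colon over ileum for each tested gene with all 6 LN libraries (horizontal axis) and without ileum 3 (vertical axis), where the dashed line marks equal values and fitted values far from 0 belong to genes with few or no reads in a tissue. Calls lie near the line, whereas most adipocyte genes (green rings) lie above it, with a list median of -2.20 on the horizontal axis and 0.949 on the vertical axis.

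Abundant genes were among those that lost their call without ileum 3. For calls higher in colon, the 10 most abundant were FN1, ALDOA, SLC16A1, GPX2, PRDX6, BSG, MARCKS, PLEC, SQOR and IFITM1. PRDX6, an antioxidant peroxiredoxin, was at 94.9, 82.2 and 94.9 CPM in ileum and 573, 590 and 1169 CPM in colon, so the groups did not overlap and ileum 3 equalled ileum 1. Its log2 difference was 3.10 (SE 0.73, adjusted p = 0.0198 by edgeR). SQOR, the mitochondrial enzyme that oxidises hydrogen sulphide, was at 149, 84.2 and 109 CPM in ileum and 334, 325 and 448 CPM in colon (log2 difference 1.70, SE 0.40). For calls lower in colon, abundant ones were MGAT4A, SI, LAPTM4B, ETNK1, IVNS1ABP, ACSL3, HTATIP2, ANXA13 and DBI.

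A further 63 genes were called without ileum 3 and not with it, 35 higher and 28 lower. AHNAK, a large scaffold protein, was at 602, 905 and 2017 CPM in ileum and 1678, 2028 and 1840 CPM in colon. CFI, the complement inhibitor factor I, was at 700, 420 and 79.3 CPM in ileum and 130, 96.4 and 132 CPM in colon. GPD1L, CAST, RABGAP1L, SEC24D, ANXA1, NEURL1B, PAPSS1 and GNAI1 were the next most abundant. ANXA1, annexin A1, had a log2 difference of -0.58 with ileum 3 and 1.42 without it (adjusted p = 0.00536 by edgeR).

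Posterior HOX genes were detected in colon and at or near 0 in ileum. HOXA13 (chr18:45373340-45379046) had no read in ileum and 59.9, 51.5 and 43.4 CPM in colon, which is at least 777-fold higher (adjusted p = 5.76e-07 by edgeR). HOXA11 (chr18:45388523-45392190), also without a read in ileum, was at 36.2, 40.5 and 37.1 CPM, at least 571-fold higher (3.78e-07). HOXD11 was at 11.3, 7.48 and 5.75 CPM in colon, at least 123-fold higher (0.000439). None of the 3 genes had a single read in any LN ileum library, ileum 3 included.

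Other posterior members were near 0 in ileum. HOXD10 was at 0.067, 0.0674 and 0.194 CPM in ileum and 46.2, 30.1 and 28.6 CPM in colon, a log2 difference of 8.21 (SE 0.87, adjusted p = 9.01e-05 by edgeR). HOXA10 was at 64.0, 58.5 and 72.9 CPM in colon, and its 3 reads in ileum all came from ileum 3. The ratio was 984 (95% interval 336 to 4770). HOXD13 was at 7.77, 6.43 and 0.620 CPM in colon, against 1 read in ileum, and was called (0.00509). HOXA9 (log2 difference 8.30, SE 2.19) and HOXD9 (3.90, SE 0.91) were called too, HOXA9 only with ileum 3 in the fit (adjusted p = 0.105 without it). HOXB13, without a read in ileum and at 23.2, 22.2 and 8.45 CPM in colon, had an adjusted p of 0.0524, and 0.00736 with the 6 LN libraries alone.

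For several middle HOX genes ileum 3 lay between the other ileum libraries and colon. HOXA6 was at 0.268, 0.135 and 21.5 CPM in ileum 1, 2 and 3 and at 67.8, 68.3 and 76.0 CPM in colon. Its adjusted p was 0.313, and 0.0427 without ileum 3. HOXA5 was at 2.21, 4.31 and 24.1 CPM in ileum and 42.0, 43.4 and 56.1 CPM in colon, with 0.123 and 0.0116. HOXB5, at 1.14, 2.02 and 5.05 CPM in ileum and 13.1, 9.30 and 13.5 CPM in colon, was called either way (log2 difference 2.13, SE 0.55). HOXD8 and the more anterior HOXD3 were called only without ileum 3.

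With ileum 3 in the fit, no anterior HOX gene was called. HOXA2 was at 1.74, 1.89 and 5.11 CPM in ileum and 1.38, 0.760 and 1.35 CPM in colon, so that all ileum libraries lay above all colon libraries. Of the 29 tested HOX genes, 9 (31%) were called higher, against 1.0% of all tested genes, and 0 lower. Their median log2 difference was 2.16. Without ileum 3 the counts were 12 and 0, and the median was 4.62. In 25 of the 29, ileum 3 held the highest level of the 3 ileum libraries, against 6286 of all 15675 tested genes. Most adipocyte and smooth muscle markers were also highest there, 26 of 29 and 29 of 30, and their part in this was not tested.

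**Figure D3:**
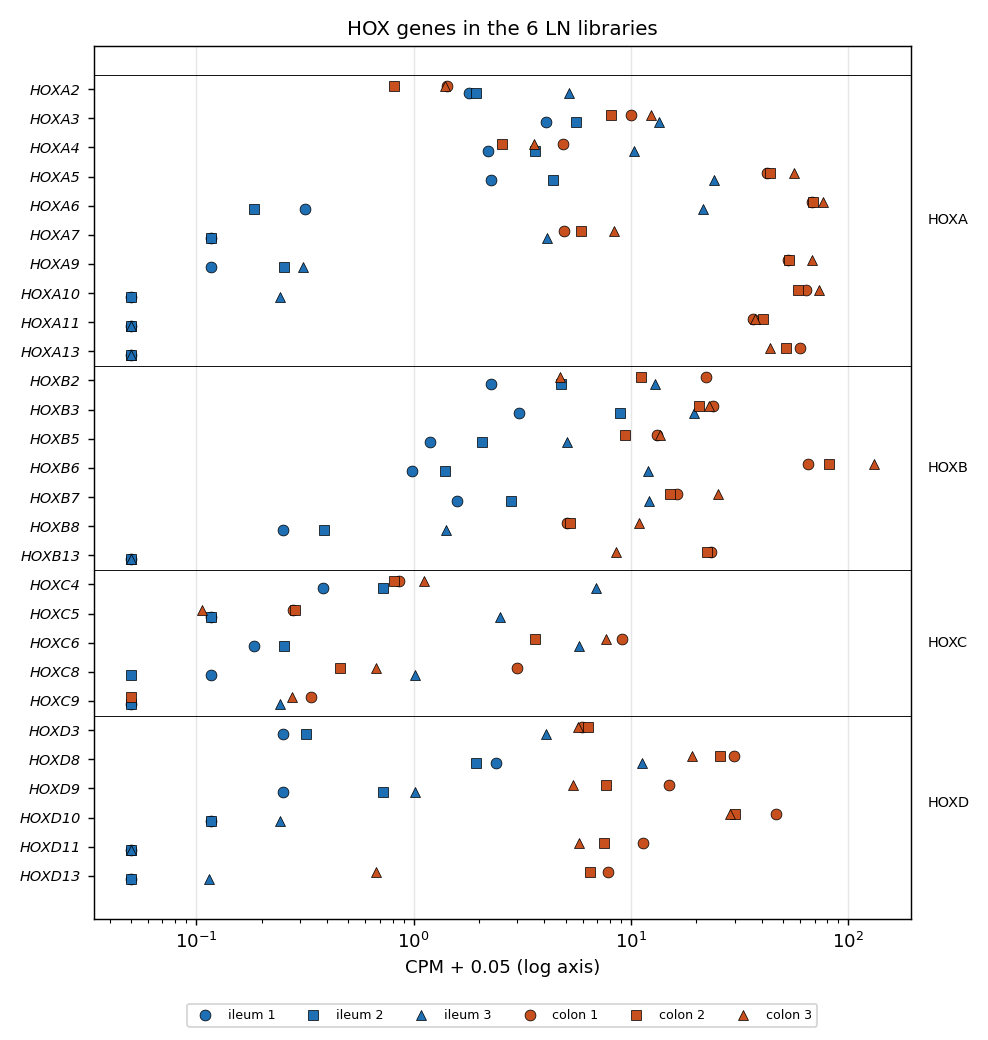
CPM of tested HOX genes with 0.05 CPM added, on a log axis, in the 6 LN libraries (symbols as labelled), grouped by cluster and ordered from anterior to posterior. HOXA10, HOXA11, HOXA13, HOXD10, HOXD11 and HOXD13 lie at or near 0 in ileum and, but for HOXD13 in colon 3, above 5 CPM in colon, while for HOXA6 ileum 3 (21.5 CPM) stands far above ileum 1 and 2.

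Regional transcription factors followed the tissue boundary for a few members. GATA4, which maintains jejunal identity, was at 161, 111 and 78.0 CPM in ileum and 0.0576, 0.877 and 0 CPM in colon (log2 difference -8.52, SE 2.07). PDX1, a factor of the duodenum and pancreas, was at 62.0, 53.6 and 27.1 CPM in ileum and 0.230, 0.234 and 0.0563 CPM in colon (-8.04, SE 1.98). GATA5, CREB3L3, ONECUT2 and TBX3 were called lower as well. CREB3L3, which drives intestinal apolipoprotein genes, was at 325, 328 and 384 CPM in ileum and at most 0.958 CPM in colon (adjusted p = 0.000325 by edgeR).

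Of the 31 tested factors 2 (6.45%) were called higher and 6 (19.4%) lower, against 1.0% and 3.31% of all tested genes. Their median was 0.14, and without ileum 3 the counts were 0 and 7. FOXF1, a mesenchymal factor, was one of those called higher, at 8.58, 10.9 and 6.99 CPM in ileum and 33.7, 18.9 and 17.4 CPM in colon. CDX2, the intestinal master regulator, was at 90.9, 77.8 and 42.7 CPM in ileum and 214, 197 and 347 CPM in colon and was not called (adjusted p = 0.371, and 0.0345 with the 6 LN libraries alone).

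Brush-border digestion was the group with the deepest median difference. Of 28 tested disaccharidases and peptidases, 17 (60.7%) were called lower in colon, against 3.31% of all tested genes, and 0 higher. The median log2 difference was -4.67. MGAM, the maltase-glucoamylase, was at 1676, 2874 and 2432 CPM in ileum and 1.04, 1.75 and 1.75 CPM in colon (log2 difference -10.58, SE 1.36, adjusted p = 0.000265 by edgeR). MME, the peptidase neprilysin, was at 211, 427 and 638 CPM in ileum and 0.345, 1.99 and 0.338 CPM in colon (-8.89, SE 1.44). PDZK1, a scaffold of apical transporters, was at 121, 148 and 205 CPM in ileum and at most 2.22 CPM in colon.

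Other peptidases kept a measurable level in colon. ANPEP, aminopeptidase N, was at 1830, 3525 and 3010 CPM in ileum and 12.6, 94.8 and 35.5 CPM in colon (log2 difference -5.87, SE 0.96). PEPD, a cytosolic dipeptidase, was at 180, 137 and 129 CPM in ileum and 44.2, 38.1 and 31.4 CPM in colon (-1.97, SE 0.31). TMPRSS15 had at most 0.292 CPM in colon (-14.04, SE 2.87, adjusted p = 0.00735 by edgeR).

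Ileum 3 was the highest of the 6 libraries for 14 of the 28 genes, against 3932 of all 15675 tested genes. Without ileum 3, 11 of the 28 were called lower. SI, sucrase-isomaltase, was at 109, 330 and 1364 CPM in ileum and 14.1, 26.0 and 9.35 CPM in colon. Its log2 difference of -5.19 (SE 1.14, adjusted p = 0.0121 by edgeR) became -3.74 (0.0562) without ileum 3. ENPEP, glutamyl aminopeptidase, was at 188, 125 and 790 CPM in ileum and 6.74, 3.10 and 6.70 CPM in colon and was called either way. LCT, lactase, was at 91.6, 148 and 211 CPM in ileum and 1.78, 0.351 and 0.225 CPM in colon (adjusted p = 0.0459, and 0.0778 without ileum 3).

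Nutrient transporters were another group of this kind. Of 29 tested, 16 (55.2%) were called lower, against 3.31% of all tested genes, and 0 higher. The median log2 difference was -2.10. SLC15A1, the peptide transporter PEPT1, was at 360, 438 and 464 CPM in ileum and 0.173, 0.643 and 0.394 CPM in colon (log2 difference -10.00, SE 1.27, adjusted p = 0.000265 by edgeR). SLC6A19, which takes up neutral amino acids, was at 48.6, 163 and 153 CPM in ileum and 0.115, 0.117 and 0 CPM in colon (-10.49, SE 1.43). SLC2A2, the basolateral glucose transporter GLUT2, was at 62.3, 63.6 and 101 CPM in ileum with no read in colon, at least 1320-fold lower there (0.00042).

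Sugar and nucleoside uptake showed the same order of tissues. SLC5A1, the sodium-glucose transporter SGLT1, was at 823, 1601 and 1397 CPM in ileum and 35.5, 48.3 and 71.0 CPM in colon (log2 difference -4.63, SE 0.88). SLC28A2, a nucleoside transporter, was at 84.7, 109 and 123 CPM in ileum and at most 0.748 CPM in colon. SLC2A5, the fructose transporter GLUT5, was at 146, 110 and 175 CPM in ileum and 17.0, 1.46 and 52.8 CPM in colon, and it was not called (adjusted p = 0.146). Without ileum 3, 15 of the 29 were called lower.

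Chylomicron genes were among the most extreme. APOA4 (chr9:44201587-44204072), an apolipoprotein secreted after a fatty meal, was at 1330, 965 and 720 CPM in ileum and had no read in colon. That is at least 17400-fold lower (adjusted p = 0.00727 by edgeR). Its neighbour APOC3 (chr9:44211171-44213538), an inhibitor of lipoprotein clearance, was at 818, 1130 and 1203 CPM in ileum against 2 reads in colon, a ratio of 27500 (95% interval 7610 to 227000). FABP2, the intestinal fatty acid-binding protein, was at 196, 145 and 494 CPM in ileum with no read in colon, at least 4900-fold lower (0.00822).

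The particle itself is built on apolipoprotein B by MTTP, and both were near 0 in colon. APOB was at 2309, 2539 and 4716 CPM in ileum and 0.288, 2.28 and 0.225 CPM in colon (log2 difference -11.73, SE 1.81). MTTP was at 633, 552 and 724 CPM in ileum and 0.230, 0.292 and 0.0563 CPM in colon (-11.64, SE 1.70). APOA1, the main protein of high-density lipoprotein, was at 6139, 7461 and 9260 CPM in ileum and 32.6, 34.1 and 29.6 CPM in colon (-7.89, SE 1.34).

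Of 25 tested chylomicron and apolipoprotein genes, 14 (56%) were called lower, against 3.31% of all tested genes, and 0 higher. The median was -2.26. Without ileum 3, 12 were lower and the median was -2.05. PLA2G12B, needed for lipoprotein secretion, had the smallest adjusted p of the list (0.000123 by edgeR). FABP1, the liver-type fatty acid-binding protein, was at 2902, 1324 and 1675 CPM in ileum and 1560, 384 and 1203 CPM in colon and was not called (0.832). CD36, a fatty acid receptor that fat cells also express, was at 29.2, 33.9 and 794 CPM in ileum and 60.8, 67.5 and 54.5 CPM in colon. Its log2 difference was -2.23, and 0.949 without ileum 3.

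Sterol and bile acid handling split by gene. Of 25 tested members 9 (36%) were called lower, against 3.31% of all tested genes, and 0 higher. The median was -1.66, and 8 members were called lower without ileum 3. ABCG8, a subunit of the apical sterol exporter, was at 94.1, 107 and 96.9 CPM in ileum with no read in colon, at least 1730-fold lower (adjusted p = 0.000496 by edgeR). NPC1L1, the cholesterol importer, was at 131, 191 and 210 CPM in ileum and 0, 0.0585 and 0.451 CPM in colon (log2 difference -9.95, SE 1.42).

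Bile acid export genes gave mixed results. SLC51B, a subunit of the basolateral exporter, was at 252, 192 and 157 CPM in ileum and 11.05, 9.41 and 5.24 CPM in colon (-4.55, SE 0.66). SLC51A, its partner subunit, was at 110, 60.2 and 42.8 CPM in ileum and 22.9, 14.4 and 20.3 CPM in colon (adjusted p = 0.516, and 0.0373 with the 6 LN libraries alone). SLC10A2 was not called (adjusted p = 0.296), although colon was at least 134-fold higher in reads. It was called with the 6 LN libraries alone (0.0148) and without the 3 ileum libraries of the other diets that had FABP6 above 500 CPM (0.0272).

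Vitamin and mineral uptake was lower in colon for 10 of 27 tested genes (37%), against 3.31% of all tested genes, and higher for 0. The median was -1.60, and 9 were lower without ileum 3. LRAT, which esterifies retinol, was at 205, 276 and 187 CPM in ileum and 0.345, 0.175 and 0.0563 CPM in colon (log2 difference -10.12, SE 1.70, adjusted p = 0.00151 by edgeR). SLC40A1, the iron exporter ferroportin, was at 868, 783 and 640 CPM in ileum and 82.0, 111 and 86.9 CPM in colon (-3.04, SE 0.57). SLC46A1, the proton-coupled folate transporter, was at 184, 151 and 127 CPM in ileum and 9.38, 6.31 and 3.27 CPM in colon (-4.61, SE 0.87).

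S100G, the calcium-binding protein calbindin-D9k, had a wide spread in colon. It was at 6738, 4498 and 5299 CPM in ileum and 13.5, 0.234 and 1.86 CPM in colon, and its adjusted p was 0.0766, and 0.0165 with the 6 LN libraries alone. The calcium channel TRPV6 was called, with 73.4, 62.2 and 60.2 CPM in ileum and at most 0.732 CPM in colon (0.00708). SCARB1, a receptor for lipoproteins and carotenoids, was at 189, 241 and 279 CPM in ileum and 25.9, 34.6 and 42.6 CPM in colon.

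**Figure D4:**
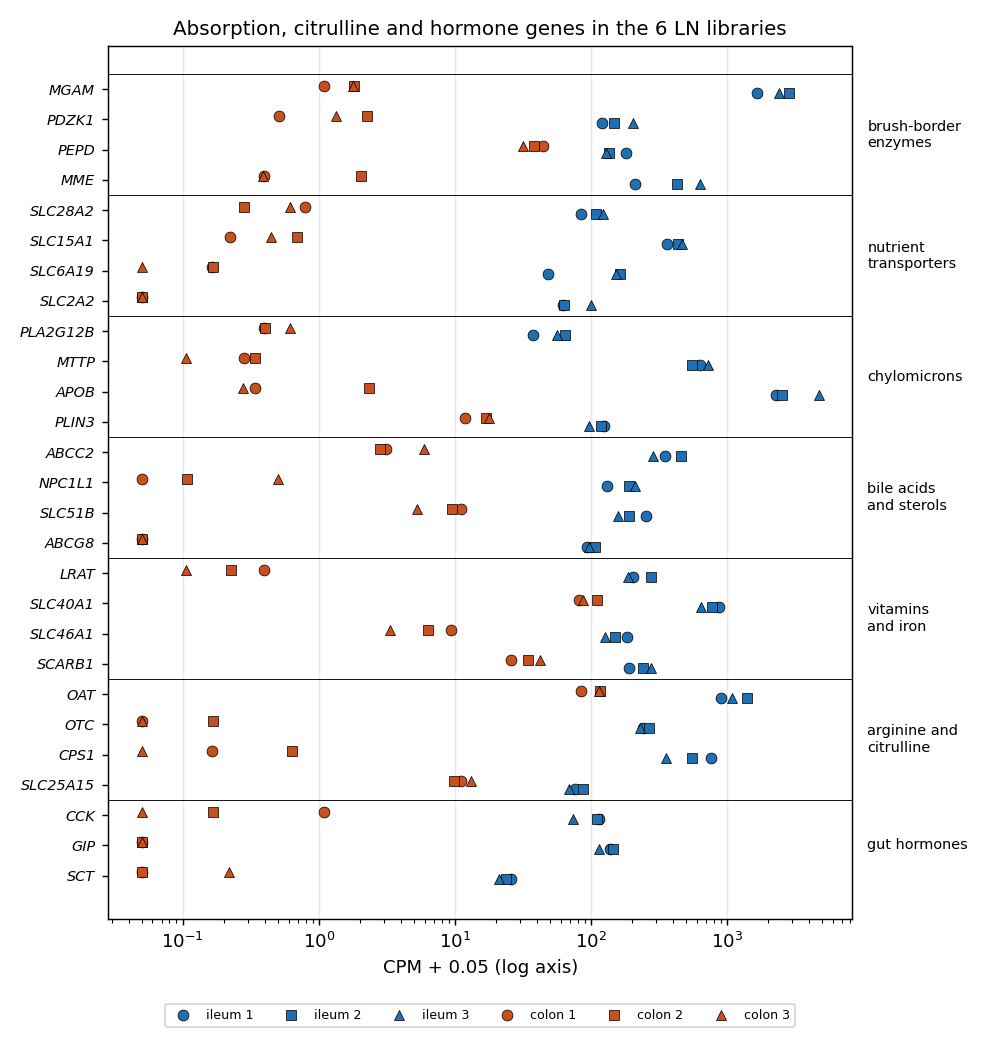
CPM with 0.05 CPM added, on a log axis, of up to 4 genes with the smallest adjusted p from each of 7 lists in the 6 LN libraries (symbols as labelled). The ileum libraries lie above the colon libraries for each gene drawn, and for SLC2A2 ileum 3 is at 101 CPM against 62.3 and 63.6 CPM in ileum 1 and 2.

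CPS1, the enzyme that NCG activates, and OTC, which acts next, were abundant in ileum and at or near 0 in colon. CPS1 was at 770, 549 and 356 CPM in ileum and 0.115, 0.585 and 0 CPM in colon, a log2 difference of -11.19 (SE 1.75, adjusted p = 0.000891 by edgeR). OTC, which joins carbamoyl phosphate and ornithine to citrulline, was at 240, 269 and 231 CPM in ileum. It had 2 reads in colon, a ratio of 6440 (95% interval 1780 to 53200). OAT, which makes ornithine from glutamate semialdehyde, was at 904, 1410 and 1092 CPM in ileum and 85.1, 116 and 114 CPM in colon (-3.43, SE 0.45, 0.000265).

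SLC25A15, the mitochondrial ornithine carrier, was at 76.0, 87.4 and 69.04 CPM in ileum and 11.05, 9.88 and 13.1 CPM in colon (log2 difference -2.77, SE 0.48). NAGS, which makes the natural activator that NCG imitates, was at 27.7, 33.2 and 28.0 CPM in ileum and 5.41, 5.90 and 6.42 CPM in colon. The libraries did not overlap, but it was not called (log2 difference -2.32, SE 0.78, adjusted p = 0.105 by edgeR). With the 6 LN libraries alone NAGS was called (0.00157).

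Of the downstream enzymes that turn citrulline into arginine, none was called with the spread of all 24 libraries. ASS1 was at 32.8, 25.6 and 15.1 CPM in ileum and 328, 75.1 and 180 CPM in colon (2.99, SE 1.18, adjusted p = 0.191), and ASS1 was called with the 6 LN libraries alone (0.034). ASL was at 28.1, 30.3 and 24.6 CPM in ileum and 14.7, 16.7 and 20.7 CPM in colon (0.471). ARG2, a mitochondrial arginase, was at 10.7, 13.2 and 18.9 CPM in ileum and 16.4, 18.9 and 26.9 CPM in colon (0.695). Of 34 tested genes of arginine, citrulline and urea metabolism, 6 (17.6%) were called lower, against 3.31% of all tested genes, and 0 higher. The median was -0.513. The other called members were SMS, the spermine synthase, and ARG1, at most 1.27 CPM in any of the 6 libraries. Without ileum 3, 5 were lower, ARG1 being the member lost (adjusted p = 0.0685), and the median was -0.469. With the 6 LN libraries alone 2 were higher and 10 lower.

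Fructose metabolism was another group with lower calls, 8 of 19 (42.1%) against 3.31% of all tested genes, with 0 higher. The median was -2.47. KHK, which phosphorylates fructose, was at 202, 190 and 229 CPM in ileum and 18.0, 12.2 and 11.5 CPM in colon (log2 difference -3.90, SE 0.50, adjusted p = 0.000265 by edgeR). FBP1, an enzyme of gluconeogenesis, was at 419, 611 and 537 CPM in ileum and 17.3, 19.9 and 26.7 CPM in colon (-4.61, SE 0.76). Without ileum 3, 7 were called lower, and PC was the member lost.

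Drug-metabolising genes fell in 11 of 34 (32.4%), against 3.31% of all tested genes, and rose in 0. Their median was -2.18, and 7 fell without ileum 3. CYP3A29, a main cytochrome P450 of pig intestine and liver, was at 949, 2509 and 2285 CPM in ileum and 11.2, 29.2 and 32.8 CPM in colon (log2 difference -6.29, SE 1.09). CYP2C36 was at 21.6, 35.4 and 28.7 CPM in ileum with no read in colon, at least 497-fold lower (adjusted p = 0.0421 by edgeR, and 0.0723 without ileum 3). How reads shared by close P450 copies were counted is not given in the sources used here, so single members are uncertain. CYP1A1, a target of the aryl hydrocarbon receptor, was at 442, 204 and 474 CPM in ileum and 2.53, 1.93 and 2.99 CPM in colon (-7.23, SE 1.96, and adjusted p = 0.0698 without ileum 3). SULT1E1, oestrogen sulphotransferase, lay the other way at 3.42, 2.16 and 0.194 CPM in ileum and 302, 283 and 368 CPM in colon, without passing the test (0.145, and 0.00569 with the 6 LN libraries alone).

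Some single genes outside these groups were also among the 12 largest differences in their direction. LEAP2, an antagonist of the ghrelin receptor, was at 30.3, 19.6 and 33.0 CPM in ileum with no read in colon, at least 482-fold lower (adjusted p = 0.00178 by edgeR). SDSL, a serine dehydratase-like gene, was at 84.3, 89.8 and 105 CPM in ileum with 1 read in colon. PIP, the prolactin-induced protein, was at 0.067, 0.135 and 0.129 CPM in ileum and 38.5, 65.9 and 29.4 CPM in colon (log2 difference 8.56, SE 2.0), and lost its call without ileum 3 (adjusted p = 0.0762). CWH43 had no read in ileum and 7.20, 6.14 and 8.51 CPM in colon, at least 110-fold higher (0.0226, and 0.0685 without ileum 3).

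Gut hormone genes of the upper intestine were called lower and none higher, 5 of 28 (17.9%) against 3.31% of all tested genes. The list median was -1.19. GIP had no read in colon and was at least 2310-fold lower there (adjusted p = 0.0208 by edgeR). CCK, which triggers gallbladder contraction, was at 114, 111 and 73.6 CPM in ileum and 1.04, 0.117 and 0 CPM in colon (log2 difference -7.99, SE 1.72). SCT, secretin, was at 25.9, 23.9 and 20.9 CPM in ileum with 3 reads in colon, a ratio of 409 (95% interval 140 to 1990). MLN, which encodes motilin, was called too and lost its call without ileum 3 (0.0559).

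GCG, which encodes the glucagon-like peptides, had the opposite order. It was at 0.335, 0.202 and 0.194 CPM in ileum and 36.6, 49.3 and 29.2 CPM in colon, a log2 difference of 7.25 (SE 2.46) with an adjusted p of 0.111. With the 6 LN libraries alone the adjusted p was 0.000434. INSL5, a hormone of colonic endocrine cells, had no read in ileum and 5.76, 1.58 and 0 CPM in colon and was not called (0.357).

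Oxidases of the epithelial surface rose in colon. NOX1, a superoxide-producing NADPH oxidase, was at 0.134, 0.539 and 0 CPM in ileum and 70.9, 45.0 and 118 CPM in colon (log2 difference 8.41, SE 1.63, adjusted p = 0.00506 by edgeR). DUOX2 (chr1:126620468-126641406), which releases hydrogen peroxide, was at 14.6, 20.3 and 24.4 CPM in ileum and 320, 100 and 300 CPM in colon (3.60, SE 0.79). Its maturation factor DUOXA2 lies next to it (chr1:126616631-126620359) and was at 0.871, 1.35 and 0.582 CPM in ileum and 37.9, 7.37 and 22.6 CPM in colon (4.59, SE 1.02).

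GPX2, a gut glutathione peroxidase, was at 7.44, 3.71 and 0.776 CPM in ileum and 1092, 708 and 1472 CPM in colon (log2 difference 8.10, SE 2.05). Of 30 tested antimicrobial and oxidase genes, 5 (16.7%) were called higher, against 1.0% of all tested genes: NOX1, DUOX2, DUOXA2, DUOXA1 and GPX2. The peptidoglycan amidase gene PGLYRP2 was the 1 called lower (3.33%, against 3.31%), and the list median was -0.461. Without ileum 3, 2 were higher and 2 lower, and the median was 0.292. NOX1 and DUOX2 kept their calls, while DUOXA2 (adjusted p = 0.064), GPX2 (0.101) and DUOXA1 (0.103) did not.

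Membrane-bound mucins rose in 2 of 7 tested genes (28.6%, against 1.0% of all tested genes) and fell in 0. Their median was -0.0843. MUC12 was at 3.15, 0.337 and 1.29 CPM in ileum and 401, 290 and 664 CPM in colon (log2 difference 8.14, SE 1.68, adjusted p = 0.00787 by edgeR, and 0.0443 without ileum 3). MUC4 was at 0.067, 0.539 and 0 CPM in ileum and 19.9, 25.7 and 69.9 CPM in colon (7.53, SE 2.0, and 0.121 without ileum 3). No secreted mucus gene was called higher: of 30 tested goblet cell and secreted mucus genes 0 were called higher and 1 lower, TFF2. Over all tested genes 3.31% were called lower. MUC2, the main gel-forming mucin, was at 1181, 898 and 203 CPM in ileum and 808, 1268 and 1005 CPM in colon (0.90). In 26 of these 30 genes ileum 3 held the lowest level of the 3 ileum libraries, against 6884 of all 15675 tested genes.

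Short-chain fatty acid uptake and use split between transporters. SLC16A1, the monocarboxylate transporter MCT1, was at 253, 164 and 160 CPM in ileum and 1070, 839 and 1132 CPM in colon (log2 difference 2.40, SE 0.57, adjusted p = 0.0204 by edgeR). Its chaperone BSG, basigin, was at 226, 161 and 134 CPM in ileum and 617, 544 and 826 CPM in colon (1.93, SE 0.54). The sodium-coupled carriers were lower in colon. SLC5A8 was at 385, 308 and 32.1 CPM in ileum and 0.979, 2.92 and 0.789 CPM in colon (-7.27, SE 1.46), and SLC5A12 at 24.3, 142 and 429 CPM in ileum and at most 0.175 CPM in colon.

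Of 30 tested genes of fatty acid oxidation and ketogenesis, 1 (3.33%) was called higher and 5 (16.7%) lower. Over all tested genes the shares were 1.0% and 3.31%, and the list median was -0.457. ACAA1, EHHADH, BDH2 and DECR1 were among the lower ones, EHHADH and DECR1 only with ileum 3 in the fit, and without ileum 3 the counts were 1 higher and 2 lower. Of 15 tested short-chain fatty acid genes, 2 (13.3%) were called each way, against 1.0% higher and 3.31% lower of all tested genes. Their median was -0.509, and without ileum 3 the counts were 0 higher and 2 lower.

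Salt and water transport genes were called higher in colon or not according to the libraries that set the spread. Of 40 tested genes 0 were called higher and 2 (5%) lower, against 1.0% and 3.31% of all tested genes, with a median of 0.0655. Yet 13 of the 40 had all colon libraries above all ileum libraries, against 10.2% of all tested genes. SLC9A3, the apical sodium-proton exchanger, was at 50.5, 75.8 and 47.4 CPM in ileum and 426, 381 and 458 CPM in colon (log2 difference 2.86, SE 1.16, adjusted p = 0.201 by edgeR, and 0.00161 with the 6 LN libraries alone). SLC26A3, the chloride-bicarbonate exchanger, was at 528, 359 and 310 CPM in ileum and 1799, 1736 and 1737 CPM in colon (2.14, SE 1.24, 0.424, and 0.00619 with the 6 LN libraries alone). CA7, a carbonic anhydrase, had no read in ileum and 18.9, 18.7 and 16.1 CPM in colon, at least 270-fold higher in reads, with an adjusted p of 0.168. With the 6 LN libraries alone it was 0.00143, and 10 genes of the list were called higher and 7 lower of 37 tested. The 2 genes lower in the fit of all libraries were the aquaglyceroporin AQP7, which is also on the adipocyte list and was at 42.1, 33.4 and 106 CPM in ileum and 1.55, 4.91 and 3.10 CPM in colon, and AQP11. AQP8, a colonocyte water channel in other species, was at 281, 329 and 178 CPM in ileum and 170, 131 and 195 CPM in colon and overlapped (0.842).

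Muscle and stroma differed in median but rarely in calls. The 30 smooth muscle genes had a median log2 difference of 2.27, and 3.80 without ileum 3. Calls either way numbered 0 of the 30, against 4.31% of all tested genes. For all but 1 of the 30 the 3 and 3 libraries overlapped, and in this list ileum 3 was high and colon 3 low. DES, the muscle intermediate filament desmin, was at 66.3, 115 and 825 CPM in ileum and 7950, 4626 and 38.4 CPM in colon. Neuronal genes gave 2 calls higher of 31 (6.45%, against 1.0% of all tested genes) and 0 lower. The called genes were NEFM and NEFL, neurofilament subunits of enteric nerve fibres. NEFM was at 1.61, 2.29 and 0 CPM in ileum and 26.3, 17.2 and 20.7 CPM in colon (4.04, SE 0.86, adjusted p = 0.0101 by edgeR), and its 3 colon libraries stayed close although colon 3 had little muscle. NEFL lost its call without ileum 3 (adjusted p = 0.0758), and with the 6 LN libraries alone neither was called. Of 29 fibroblast genes 1 (3.45%) was called higher, FN1, fibronectin. It was at 231, 484 and 495 CPM in ileum and 2354, 2108 and 1250 CPM in colon.

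Among immune lists, calls fell only in plasma cell and gut-homing genes. Of 27 such genes 2 (7.41%) were lower and 0 higher, against 3.31% and 1.0% of all tested genes. Their median was -0.464, and both calls held without ileum 3. CCL25, the chemokine of small-intestinal epithelium, was at 286, 249 and 240 CPM in ileum and 2.02, 0.877 and 1.07 CPM in colon (log2 difference -7.60, SE 0.91, adjusted p = 0.000265 by edgeR). Its receptor CCR9, carried by gut-homing lymphocytes, was at 8.31, 24.8 and 5.76 CPM in ileum and 0.403, 2.22 and 2.48 CPM in colon (-2.92, SE 0.63). With the 6 LN libraries alone CCR9 was not called (adjusted p = 0.114 by edgeR). JCHAIN, at 5597, 6029 and 11490 CPM in colon, was not called (0.824).

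No gene was called of 29 B cell follicle, 36 T and NK cell, 21 macrophage, 23 endothelial, 29 interferon-stimulated, 28 crypt, 30 cell cycle or 44 PI3K-Akt genes. Over all tested genes 4.31% were called, and 0 calls in lists of this size is near that share. These lists also gave no call without ileum 3. With the 6 LN libraries alone 1 T and NK cell gene, a GZMA copy, was called higher. MKI67, a proliferation marker, was at 142, 65.2 and 5.69 CPM in ileum and 86.6, 130 and 150 CPM in colon (adjusted p = 0.784 by edgeR). The series' title names PI3K-Akt signalling. AKT1 was at 121, 107 and 93.3 CPM in ileum and 159, 139 and 160 CPM in colon (log2 difference 0.51, SE 0.16, adjusted p = 0.0846). PIK3CA was at 32.6, 25.1 and 61.0 CPM in ileum and 42.7, 31.1 and 27.8 CPM in colon, with a log2 difference of -0.22, and 0.23 without ileum 3. The remaining lists gave CLDN15, a paracellular cation pore of the small intestine, as 1 lower of 25 tight junction genes. TNNC2 was 1 lower of 9 skeletal muscle genes, with 20 reads in ileum and 0 in colon, at least 7.7-fold lower. The median log2 difference of those 9 genes was 1.37. No call was made among 8 mesothelial and 3 erythroid genes, of which HBB, a globin gene, was called lower with the 6 LN libraries alone.

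**Figure D5:**
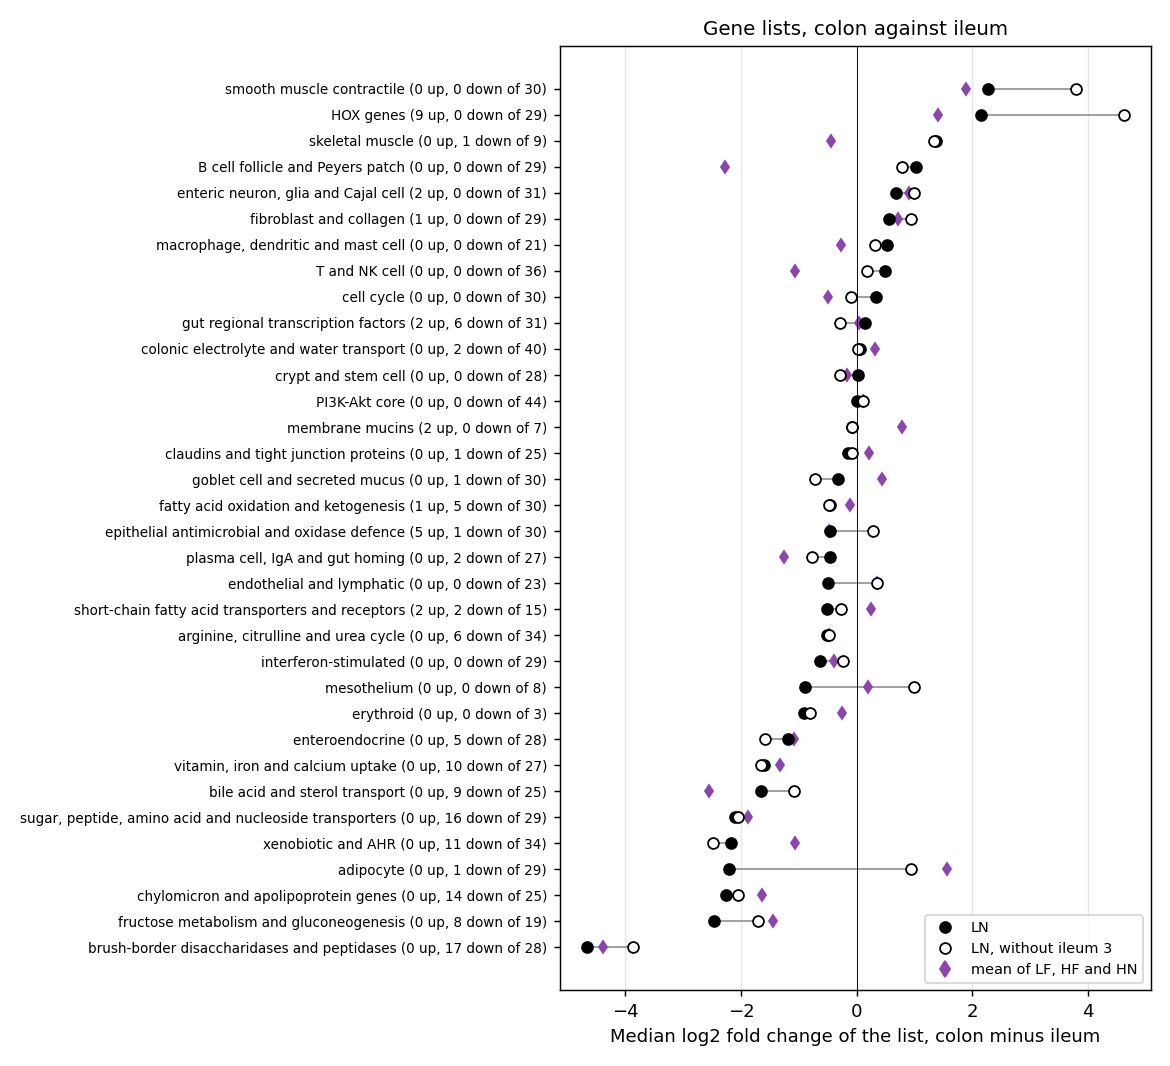
Median log2 fold change of colon over ileum for each of 34 gene lists in LN (filled circles), in LN without ileum 3 (open circles) and in the mean of LF, HF and HN (diamonds), with the number called in LN beside the name. The adipocyte list crosses 0 when ileum 3 is left out (-2.20 to 0.949), as do some other lists. Brush-border genes stay lowest in all 3.

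The tissue difference was then set beside that of the other 3 diets, from 18 other libraries in the same fit. Those 18 also entered the spread used for the LN test, so the calls are not independent. FABP6 had a log2 difference of 0.83 in LN and -8.42 in the other diets, where 3 ileum libraries were rich in it. In the other diets 3988 genes were called (25.4%), 1693 higher in colon (10.8%) and 2295 lower (14.6%). There were 9 libraries a side in place of 3, and 39.0% of genes had an unadjusted p under 0.05. All 157 genes called higher in LN were also higher in the other diets, 148 of them called. Of the 519 called lower in LN, 512 were lower there and 461 were called. The median log2 difference of the 157 was 2.72 in LN and 1.86 in the other diets, and that of the 519 was -2.94 and -1.98, in genes chosen for their size in LN. The 7 in the opposite direction were LPGAT1, ADIPOR2, CDO1, MAP2K1, PC, PALMD and EEPD1.

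Whether the LN difference itself departed from the mean of the other diets was tested directly, and edgeR called 0 of 15675 genes. Without adjustment 1209 genes (7.71%) had a p under 0.05, DESeq2 called 43 (5 higher and 38 lower) and limma-voom 2. LPGAT1, a lysophospholipid acyltransferase, had the smallest adjusted p, at 227, 252 and 219 CPM in ileum and 120, 110 and 123 CPM in colon. Its log2 difference was -0.98 in LN and 0.16 in the other diets, a gap of -1.14 with an adjusted p of 0.11. PC (gap -3.76), CDO1 (-5.23) and the adiponectin receptor gene ADIPOR2 (-1.60) shared an adjusted p of 0.239, and TYW1 (-1.75) had 0.439. ADIPOR2 was at 95.4, 68.7 and 151 CPM in ileum and 36.3, 43.6 and 26.2 CPM in colon, so 3 of these 5 were highest in ileum 3. Above the other diets, RNF122, FAR2, MASP2, SLITRK3 and PRR12 were first, each with an adjusted p of 0.641.

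Several lists had medians on opposite sides of 0 in LN and in the other diets, among them B cell and adipocyte genes. The ileum libraries were also unlike in FABP6. It was at 827 to 8420 CPM in 3 ileum libraries of the other diets and at most 6.94 CPM in LN ileum. The part of this in the medians was not tested. B cell follicle genes had a median of 1.02 in LN (0 of 29 called) and -2.28 in the other diets (21 lower). MS4A1, the B cell marker CD20, was at 9.71, 16.4 and 2.14 CPM in LN ileum and 3.74, 68.8 and 24.7 CPM in LN colon. Adipocyte genes had -2.20 in LN, 0.949 in LN without ileum 3 and 1.56 in the other diets (17 higher, 2 lower). The difference between LN and the other diets passed for no gene of either list.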

How the data were processed

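Poly(A) RNA of ileum and colon was captured on oligo(dT) beads and randomly primed, and both ends of fragments were sequenced, per the labels' protocols. The submitters' processing notes name fastp 0.22.0, HISAT2 2.1.0, HTSeq 0.9.1 and Sscrofa11.1; settings, strand and handling of multi-mapped reads are not given in the sources used here. The authors deposited raw counts for 20674 genes, which were analysed, and FPKM values, which the authors made from those counts (largest relative difference 2.1e-07) and which were not used. Gene IDs, symbols and Sscrofa11.1 positions are those of the deposited table; all 20674 IDs matched RefSeq.

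Counts were fitted in edgeR 4.0.16 (R 4.3.3) as 8 tissue-by-diet means over 24 libraries, with filterByExpr, TMM scaling and quasi-likelihood F-tests; DESeq2 1.42.0 and limma 3.58.1 were alternatives. Code was tested on simulated data. Levels of marker lists are means of log2 CPM with a prior count of 2. The contrasts were colon minus ileum in LN, the mean of the same in LF, HF and HN, and their difference. Samples, 34 gene lists and the naming rules were chosen with earlier results of these data known. Named are the 12 largest differences each way among called, non-overlapping genes with at least 5 CPM, and up to 4 genes per list. Fixed pathway and marker genes and the most abundant calls lost or gained without ileum 3 are named too. Other genes given with values (for example OLFM4, LGR5, JCHAIN, HOXA5, HOXA6, CDX2, MUC2, SLC9A3, S100G, GCG and CA7) were chosen after their values were seen. Results of a few genes are not reported here.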

Additional observations from a re-analysis of the deposited data

How the results depend on the processing

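The count of 676 called genes became 1375 with DESeq2, 1277 with the smooth muscle marker mean as a covariate, and stayed within 1.5 times with DESeq2's size factors in edgeR, no filter on low counts, limma-voom, the adipocyte covariate or the 6 LN libraries alone (609 to 1010). Single omissions gave 257 (without colon 1) to 469 (without ileum 3). Settings added after seeing the data gave 1027 when the 3 FABP6-rich ileum libraries of the other diets (over 500 CPM) were left out, 1331 with the LN libraries alone and without ileum 3, and 210 without ileum 3 and colon 3. The cause of these shifts was not tested. For the departure of LN from the other diets, DESeq2 called 43 genes, limma-voom 2, the smooth muscle covariate 2, and single omissions 0 to 2 (2 without ileum 1). In the other diets, the adipocyte covariate gave 1512 genes in place of 3988.

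Replicate numbers were not taken to pair the LN samples, since the labels do not say whether same-numbered libraries share a sow. Deviations of same-numbered ileum and colon libraries of LN correlated at -0.0992, 0.12 and -0.296 over genes. With 3 libraries a group, such values cannot decide whether the numbers pair. In HF the 3 same-numbered pairs were at 0.307, 0.168 and 0.213 and the 6 others below 0. In LF and HN the same-numbered pairs ranged from -0.368 to 0.209. With the replicate block, 449 genes were called in LN, 429 with the 6 LN libraries alone and the block, and 2319 in the other diets. Under the block ADIPOQ stood at 1.99, ANXA1 at 0.45, FABP4 at 0.77 and PLIN1 at 0.87 on the log2 scale, and with the 6 LN libraries and the block at 1.95, 0.42, 0.74 and 0.79.

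Of 134 genes given with a fold or a p, all 134 kept direction and call with DESeq2's size factors. Calls were lost for 43 without colon 1, 27 without colon 2, 35 without colon 3, 23 without ileum 1 and 24 without ileum 2. Without ileum 3, 97 kept both, 24 lost and 5 gained a call, and 8 changed sign. ANXA1, counted among the 8, was also called without ileum 3. None of the 8 was called with ileum 3 in the fit. Their log2 differences over omissions ranged from -4.23 to 3.90 for ADIPOQ, -1.06 to 1.53 for ANXA1, -2.76 to 1.02 for CD36, -4.57 to 2.74 for FABP4, -6.15 to 2.95 for LEP, -0.0177 to 0.90 for MUC2, -0.47 to 0.35 for PIK3CA and -4.71 to 3.36 for PLIN1. In the LN libraries alone without ileum 3 they were 3.56 for ADIPOQ, 1.40 for ANXA1, 0.93 for CD36, 2.42 for FABP4, -0.0348 for MUC2, 0.21 for PIK3CA and 2.96 for PLIN1. With the adipocyte covariate, ADIPOQ was at 1.37, ANXA1 at 0.55, FABP4 at 0.30, JCHAIN at 0.73, LEP at 0.42, PIK3CA at 0.00101 and PLIN1 at 0.71. Limma-voom gave 0.60 for ADIPOQ, 0.31 for ANXA1 and 1.38 for JCHAIN, and the smooth muscle covariate gave 0.36 for AQP8, 0.25 for FABP1 and 1.38 for JCHAIN. SLC10A2, GCG and CA7 missed the threshold with the spread of all 24 libraries and passed it with the 6 LN libraries alone. With 3 libraries a side, precision is limited.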

Other observations

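Further values, chosen after they were seen, concern single genes of the 6 libraries. MUC6, a mucin of Brunner's and pyloric glands, was at 862, 491 and 0.453 CPM in ileum 1, 2 and 3, and at most 0.468 CPM in colon. TFF2, a trefoil peptide made with it, was at 539, 625 and 39.0 CPM in ileum, and CLDN18, a gastric tight junction protein, at 43.8, 61.5 and 0.129 CPM. MUC6 ranged from 0.139 to 1800 CPM in the 6 other ileum libraries with low FABP6 and was at most 0.716 CPM in the 3 with high FABP6.

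TCN1, a vitamin B12 binder, was at 1520, 1468 and 116 CPM in ileum 1, 2 and 3. CCL16 was at 0.134, 7.01 and 113 CPM in ileum with at most 0.0585 CPM in colon. Of the 18 called genes that differed over 4-fold between ileum 3 and both other ileum libraries, 8 were higher and 10 lower in ileum 3.

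CKM, the muscle creatine kinase, was at 420, 308 and 0.282 CPM in colon 1, 2 and 3 and between 0.647 and 1.75 CPM in ileum, beside ACTG2 levels of 14260, 6815 and 88.4 CPM in the same colon libraries. NOS2, the inducible nitric oxide synthase, was at 1.47, 3.77 and 3.69 CPM in ileum and 56.0, 21.0 and 32.8 CPM in colon with an adjusted p of 0.088 from edgeR, and 0.0122 with the 6 LN libraries alone. GPR15, a colon-homing receptor of lymphocytes, was at 8.11, 8.02 and 4.46 CPM in ileum and 36.4, 55.3 and 102 CPM in colon (adjusted p = 0.17, and 0.0113 with the 6 LN libraries alone).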
